A study of Mus musculus with 2 samples.

Results

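The genes described here encode matrix glycoproteins, proteoglycans, elastic fibre proteins, laminins and nidogens, together with enzymes that cross-link or cut the matrix and 2 surface proteins of fibroblasts. They were chosen by name, 45 of 55536 annotated genes, and every symbol was found in the deposited tables. The tissue is the adrenal gland of the B6CASTF1/J mouse, an F1 hybrid between C57BL/6J and CAST/EiJ, from females aged 36 days. Total RNA (300 ng per library, with ERCC spike-in RNAs) was depleted of ribosomal RNA and sequenced from directional libraries, 2 in all, that the labels number as replicates 1 and 2 of 1 group. The labels disagree on the animals' numbers and give both libraries the same donor identifier, so the SDs may measure only the spread between libraries. No treatment, genotype or age was compared. Levels are therefore given in each library, replicate 1 first wherever 2 values stand together, and differences are differences between these 2 libraries, with no test.

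The extracellular matrix is the network of proteins and sugars between cells. Fibroblasts lay down the interstitial part, with collagen fibrils, elastic fibres and the proteoglycans that coat them, whereas the sheet under epithelium and around vessels, fat and muscle cells, the basement membrane, is built from laminins, nidogens, perlecan and collagen IV. Matricellular proteins such as osteopontin and the thrombospondins add little to its strength and act on cells through integrins and growth factors. In the adrenal gland a fibrous capsule encloses the cortex, and the cords of steroid-making cells lie against a dense bed of capillaries with their basement membranes.

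The gene tables held 35684781 and 38701795 expected counts. Markers of the labelled tissue were present: all 8 cortex markers were detected, with 17024 and 17401 TPM in sum, led by Hsd3b1, and all 8 chromaffin markers, with 1508 and 1134 TPM, led by Chgb. A gene was called detected at 1 TPM or more in both libraries. TPM is transcript abundance per length, scaled to a fixed total in each library, so genes can be set beside each other. All 10 fibroblast markers (collagens I, III, V and VI and 3 others, led by Col6a1) were detected, with 318 and 271 TPM. The libraries stood apart in RNA of some other tissues. The 10 skeletal muscle markers, led by Acta1, summed to 331 and 2.87 TPM, and the 8 with 200 or more expected counts over both libraries were all at least 1.5-fold lower in replicate 2. The 7 liver markers, led by Alb, summed to 38.5 and 2.78 TPM, and the 5 mesothelium markers, led by Msln, to 10.1 and 6.37 TPM. The 8 adipocyte markers, led by Fabp4, summed to 1573 and 1617 TPM. None of the 7 with such counts was 1.5-fold or more apart. Whether these RNAs contributed to the values of the matrix genes was not tested.

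Of the 45 genes, 41 were detected. Of 22015 nuclear protein-coding genes 11662 were (53.0%), but the list was chosen for known roles and the shares are not compared. Their TPM summed to 2029.8 in replicate 1 and 1884 in replicate 2, or 0.651% and 0.603% of the TPM of nuclear protein-coding genes. Sparc alone gave 54.3% and 53.6% of that sum, and without it the sums were 928 and 873 TPM. By mean level, 2 genes stood above 100 TPM, 20 between 10 and 100 TPM, 19 between 1 and 10 TPM and 4 below 1 TPM. The median gene of the list stood at 9.92 TPM, close to the median of 10.3 TPM over detected protein-coding genes. In bulk tissue, fewer cells of a type and less RNA per cell cannot be told apart.

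**Figure D1:**
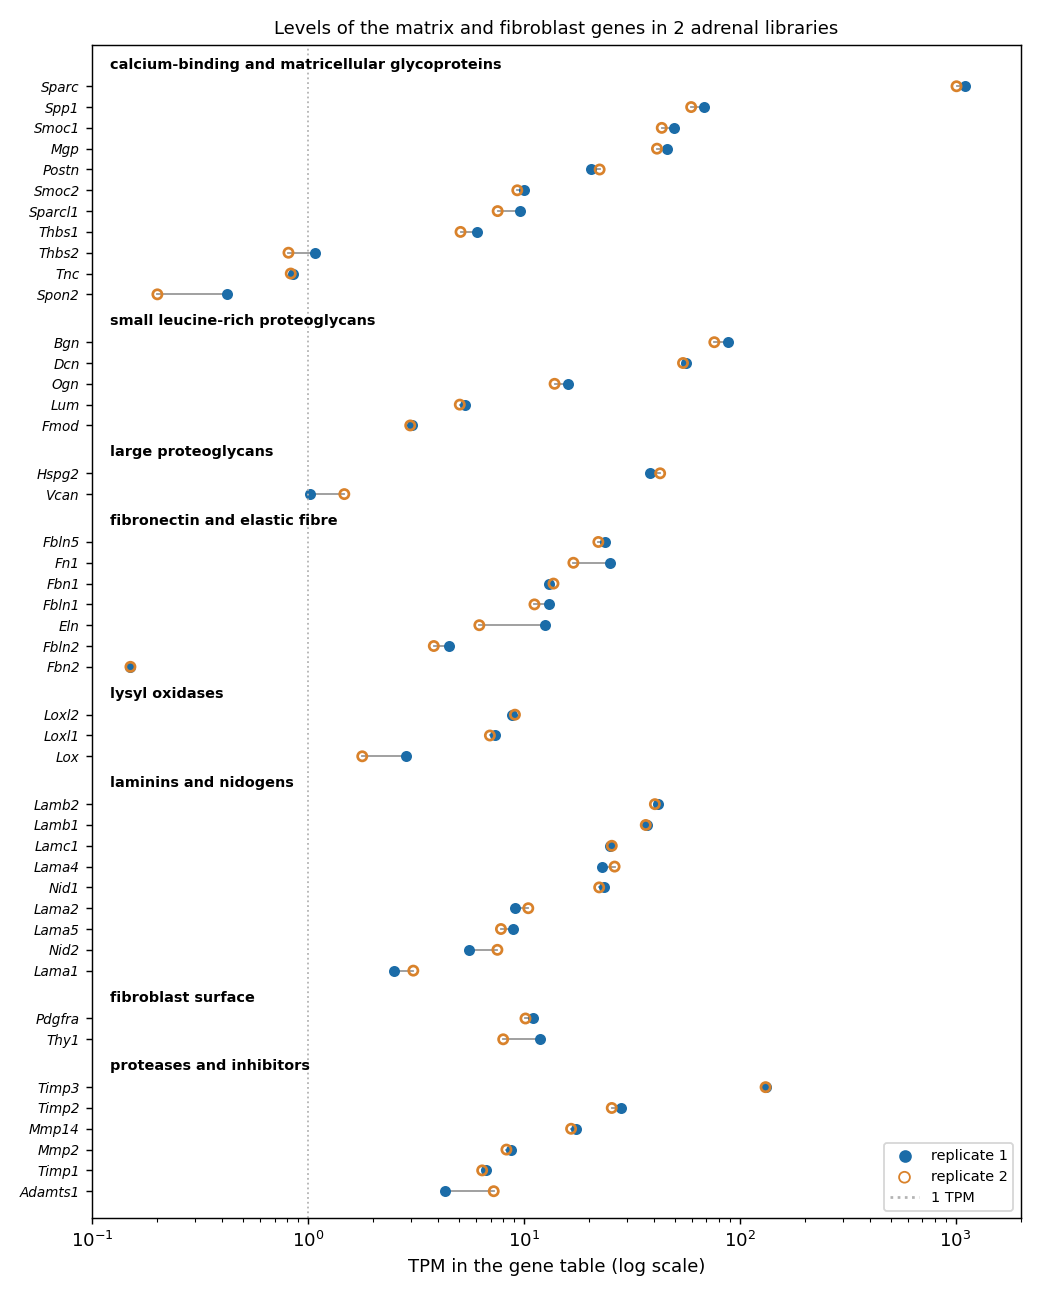
Levels of the 45 genes by role, in TPM from the gene table on a log axis. Filled points are replicate 1, open points replicate 2, and the dotted line marks 1 TPM. Sparc stands highest, and the widest gaps between libraries are those of Spon2, Eln, Adamts1, Lox, Fn1 and Thy1.

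Of the 43 genes with 200 or more summed expected counts, 3 were 1.5-fold or more apart between libraries on TPM + 0.1, or 6.98%. Over all 12280 genes with such counts 3.57% were, so the share rests on 3 genes and nothing particular to the list is read from it. Eln and Lox were lower in replicate 2, beside 1.5% of all genes, and Adamts1 was higher, beside 2.08%. Lox was the called gene nearest to the limit. Of those short of it, Fn1 and Thy1 came nearest among the lower genes and Vcan and Nid2 among the higher ones.

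The calcium-binding and matricellular glycoproteins held 64.8% and 63.8% of the summed level, and Sparc gave 83.8% and 84.1% of the group's TPM. Sparc (osteonectin, which binds collagen and calcium) on chromosome 11 from 55394500 to 55423183 stood at 1102 and 1010.3 TPM, a mean of 1056 ± 64.9 TPM (SD, n = 2). That made it the gene of rank 9 among nuclear protein-coding genes by mean level. Its relative Sparcl1 (hevin) was far lower, at 9.58 and 7.55 TPM. The related basement membrane proteins Smoc1 and Smoc2 differed in level from each other, with Smoc1 at 49.4 and 43.5 TPM and Smoc2 at 9.95 and 9.31 TPM, so that the libraries did not overlap between the genes.

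Spp1 (osteopontin, a secreted phosphoprotein that binds integrins) stood at 68.6 and 59.5 TPM. Mgp, the matrix Gla protein that holds back calcification, was at 45.9 and 41.3 TPM, and Postn (periostin, which binds integrins and collagen) at 20.5 and 22.4 TPM. With Sparc and Smoc1, these 3 were the members of the group above 20 TPM in both libraries. Thrombospondins and tenascin-C, matricellular proteins that are raised in injured tissue, were low. Thbs1 was at 6.03 and 5.08 TPM, Thbs2 at 1.07 and 0.81 TPM, and Tnc at 0.85 and 0.83 TPM. Spon2 (mindin), on 20 and 15 expected counts, was at 0.42 and 0.2 TPM. Thbs2, Tnc and Spon2 were thus under 1 TPM in at least 1 library, and of the group only Postn was higher in replicate 2.

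Postn is spliced within its carboxy-terminal region, and of its 9 annotated transcripts none held more than 53.9% of its TPM in either library or quantification. A cassette exon is an internal exon that other transcripts of the gene skip. Its inclusion is the share of TPM in transcripts with the exon among those that contain or skip it, from the alignment-derived and the read-derived transcript tables. For Postn, 2 coding exons were included at intermediate levels. They are shown in mm10 from GENCODE M21 transcripts, 5′ to 3′, with the exon in capitals and 12 bases of each neighbouring exon in lower case.
Postn exon of 81 bases, chr3:54380412-54380492, plus strand: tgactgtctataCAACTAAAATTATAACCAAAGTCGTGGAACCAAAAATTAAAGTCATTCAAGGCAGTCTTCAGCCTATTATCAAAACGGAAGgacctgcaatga
Postn exon of 84 bases, chr3:54385671-54385754, plus strand: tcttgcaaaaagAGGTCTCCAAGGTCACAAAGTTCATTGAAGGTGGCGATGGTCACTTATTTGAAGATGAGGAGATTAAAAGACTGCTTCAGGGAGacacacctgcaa
The exon of 81 bases was included at 40.5% in replicate 1 and 26.3% in replicate 2 by the alignment-derived table, and at 38.1% and 28.2% by the read-derived table. The exon of 84 bases was included at 22.0% and 27.4%, and at 24.6% and 29.4%. Replicate 1 thus had the higher inclusion of the first exon and the lower inclusion of the second in both quantifications. Each length is a multiple of 3, so either exon can be skipped with the reading frame kept. The alignment-derived values rest on 2014 and 2419 expected counts for the first exon.

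The small leucine-rich proteoglycans, which bind collagen fibrils and limit their thickness, were all detected, from 3.00 TPM on average for Fmod to 82.0 TPM for Bgn. Bgn (biglycan) was at 87.8 and 76.2 TPM, and Dcn (decorin) at 56.2 and 54.6 TPM. Ogn (osteoglycin) followed at 15.9 and 13.9 TPM. The 3 levels keep one order in both libraries, with gaps between the genes wider than those between the libraries. Lum (lumican) was at 5.32 and 5.04 TPM and Fmod (fibromodulin) at 3.02 and 2.97 TPM. All 5 were lower in replicate 2, by at most 1.15-fold. Dcn and Lum are neighbours on chromosome 10, with 46984 bases between them, and Dcn was over 10 times the level of Lum in each library. Among 11 other genes of the family, 5 were detected and none stood apart, the highest being Prelp at 14.3 and 12.8 TPM, Podn at 2.54 and 2.5 TPM and Ecm2 at 1.97 and 2.09 TPM.

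Hspg2 (perlecan, the large heparan sulfate proteoglycan of basement membranes) stood at 38.3 and 42.8 TPM. Of that, Hspg2-202, a processed transcript of 820 bases, held 23.7% and 20.1% by alignment, on 235 and 240 expected counts. From reads it held 3.54% and 2.32%. Vcan (versican, which binds hyaluronan in loose matrix) was near the detection level, at 1.02 and 1.47 TPM. Both genes were higher in replicate 2 by TPM of the gene table, but the read-derived table put Vcan lower there, at 1.70 and 1.18 TPM. For Vcan the expected counts were nearly level, 191 and 196, and the ratio of count shares was 0.946 with an exact 95% binomial interval from 0.771 to 1.16, which covers counting error only. Vcan-204, an annotated coding transcript of 294 bases, held 49.3% of the gene's TPM in replicate 2, on 5.46 expected counts, and none in replicate 1. The long glycosaminoglycan-bearing exons of Vcan, of 5217 and 2880 bases, were included at 47.1% and 22.4% in replicate 1 and at 54.3% and 35.7% in replicate 2 by the alignment-derived table, and at 58.4% and 22.7% and at 72.7% and 48.9% by the read-derived table. With so few counts, their inclusion is known only roughly.

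Fibronectin, the glycoprotein that links cells to collagen, was among the genes that differed most between libraries. Fn1 on chromosome 1 (71585520 to 71653200) was at 25.0 TPM in replicate 1 against 16.9 TPM in replicate 2, a log2 ratio of -0.56, just short of the 1.5-fold limit. Its expected counts were 4854 and 3794. The ratio of count shares was 0.721 with an interval from 0.690 to 0.752, and the read-derived table gave 45.9 and 31.9 TPM, so the libraries differed in the same direction by each measure.

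Tissue fibronectin carries extra domains A and B, coded by single exons that liver cells skip when they make plasma fibronectin. Both exons were included in part of the transcripts, and they are shown in the same way as those of Postn.
Fn1 extra domain A exon of 270 bases, chr1:71603660-71603929, minus strand: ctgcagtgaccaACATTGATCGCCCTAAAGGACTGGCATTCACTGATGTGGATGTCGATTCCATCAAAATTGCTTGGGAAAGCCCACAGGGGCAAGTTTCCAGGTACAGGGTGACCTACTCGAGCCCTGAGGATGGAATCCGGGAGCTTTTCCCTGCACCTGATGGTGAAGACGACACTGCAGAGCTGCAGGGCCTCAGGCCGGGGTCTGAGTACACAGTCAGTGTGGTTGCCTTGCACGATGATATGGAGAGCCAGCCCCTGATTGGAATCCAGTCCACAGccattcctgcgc
Fn1 extra domain B exon of 273 bases, chr1:71613763-71614035, minus strand: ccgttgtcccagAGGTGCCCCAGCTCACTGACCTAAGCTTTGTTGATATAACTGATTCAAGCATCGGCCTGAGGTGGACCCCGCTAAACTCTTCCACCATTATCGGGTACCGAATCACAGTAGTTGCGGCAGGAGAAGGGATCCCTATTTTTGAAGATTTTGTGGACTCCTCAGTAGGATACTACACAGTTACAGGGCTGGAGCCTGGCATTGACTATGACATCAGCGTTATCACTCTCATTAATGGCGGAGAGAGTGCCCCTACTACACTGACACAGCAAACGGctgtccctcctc
The exon of extra domain A was included at 21.4% in replicate 1 and 19.0% in replicate 2 by the alignment-derived table, and at 23.9% and 19.9% by the read-derived table. Extra domain B was included at 11.1% and 14.8%, and at 10.6% and 12.3%. Extra domain A was thus the more often included of the pair in each library and quantification. Of the 17 annotated transcripts of Fn1, none held more than 33.3% of its TPM. The leading transcript differed between quantifications, from Fn1-208 or Fn1-203 by alignment to Fn1-203 or the retained-intron Fn1-204 from reads, so single transcripts of this gene are uncertain. Replicate 1 also held more RNA of liver, the organ that makes plasma fibronectin. The part of that RNA in the Fn1 level was not tested.

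**Figure D2:**
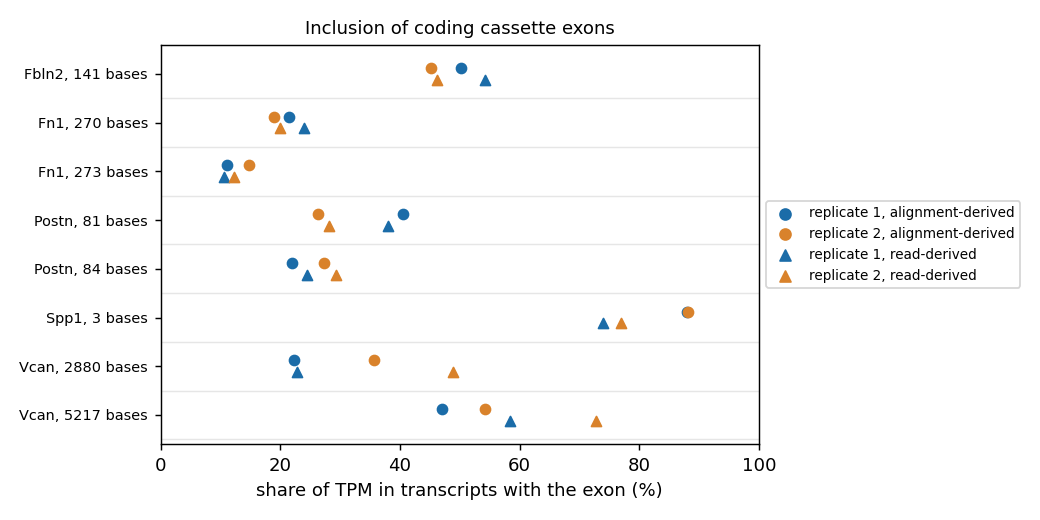
Inclusion of coding cassette exons as a percentage of TPM, for exons of 5 genes named by length. Circles are the alignment-derived table, triangles the read-derived table, blue replicate 1 and orange replicate 2. The libraries lie apart in both quantifications for the Postn, Fbln2 and Fn1 exons and, on few counts, for the Vcan exon of 2880 bases. The Fn1 exons lie below 24%, and the symbols of Spp1 and of the Vcan exon of 5217 bases spread with the quantification.

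The elastic fibre genes of the list were led by a fibulin. Fbln5, which organises elastin on microfibrils, was at 23.9 and 22.1 TPM, and Fbn1, the main fibrillin of microfibrils, at 13.1 and 13.7 TPM. Fbln1 was at 13.0 and 11.2 TPM and Fbln2 at 4.5 and 3.82 TPM. Fbln1 and Fbn1 thus stood close together, level in replicate 1 at 13.04 and 13.06 TPM, with Fbn1 higher in replicate 2 by less than 3 TPM. The read-derived table put Fbln1 at 21.7 and 18.7 TPM and Fbn1 at 21.5 TPM in both libraries, with Fbln1 slightly higher in replicate 1. Fbn2, the fibrillin best known from developing tissue, was not detected, at 0.15 TPM in both libraries on 54 and 45 expected counts.

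Elastin itself was the gene with the widest gap between libraries among those with enough counts. Eln on chromosome 5 (134702593 to 134747323, minus strand) was at 12.5 TPM in replicate 1 against 6.21 TPM in replicate 2, a 2.00-fold difference on TPM + 0.1. Its expected counts were 1541 and 802, its ratio of count shares 0.480 with an interval from 0.440 to 0.523. The read-derived table gave 20.8 and 10.5 TPM. The full coding transcript Eln-201 took 72.4% and 66.5% of the TPM, with 1228 and 599 expected counts, so the main coding form also differed. Eln-203, annotated as a target of nonsense-mediated decay, took 22.0% and 26.7%, and it skips 13 coding exons together, which the other transcripts included at between 71.3% and 84.3% over both libraries and quantifications.

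Another partly included exon of the elastic fibre group lies in Fbln2 and adds to its run of calcium-binding repeats.
Fbln2 exon of 141 bases, chr6:91259630-91259770, plus strand: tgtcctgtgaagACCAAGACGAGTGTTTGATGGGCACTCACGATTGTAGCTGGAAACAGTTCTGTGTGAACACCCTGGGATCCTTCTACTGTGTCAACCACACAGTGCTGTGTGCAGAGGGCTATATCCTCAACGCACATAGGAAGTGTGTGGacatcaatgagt
It was included at 50.2% in replicate 1 and 45.2% in replicate 2 by the alignment-derived table, and at 54.1% and 46.2% by the read-derived table. About equal amounts of both forms were therefore present. A retained-intron transcript, Fbln2-206, held 35.2% and 23.8% of the gene's TPM by alignment and 18.4% and 1.24% from reads, so the level of complete Fbln2 mRNA is below the gene's TPM.

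The lysyl oxidases cross-link elastin and collagen. Loxl2 was highest, at 8.79 and 9.08 TPM, followed by Loxl1, which acts on elastin, at 7.33 and 6.95 TPM. Lox was lowest, at 2.85 and 1.78 TPM, a log2 ratio of -0.65 on 477 and 320 expected counts. Its ratio of count shares was 0.619 with an interval from 0.535 to 0.714. Elastin and Lox were thus both lower in replicate 2, while Loxl1, Fbln5 and Fbn1 lay within 1.1-fold between libraries. Among 15 other elastic fibre and microfibril genes, 12 were detected. The highest were the latent TGF-beta binding proteins Ltbp3 at 67.2 and 67.4 TPM and Ltbp4 at 23.0 and 23.6 TPM, and Efemp1 at 36.4 and 32.6 TPM. By TPM of the gene table, Mfap5, a microfibril glycoprotein, was lower in replicate 2 at 7.26 and 4.77 TPM, and Ltbp2 higher at 1.12 and 2 TPM. Their expected counts differed less, 276 and 221 for Mfap5 and 171 and 200 for Ltbp2. The read-derived table also put them less far apart, Mfap5 at 15.8 and 13.9 TPM and Ltbp2 at 2.48 and 3.36 TPM.

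Laminins are trimers of an alpha, a beta and a gamma chain, and the alpha chain sets which cell receptors they bind. Of the alpha chains Lama4, typical of vessels and fat, was highest at 22.9 and 26.3 TPM. Lama2, the chain known from muscle and nerve, was at 9.07 and 10.5 TPM, and Lama5, of epithelium and mature vessels, at 8.89 and 7.82 TPM. Lama1, the chain of early embryos and some epithelia, was lowest at 2.5 and 3.07 TPM. Lama4 gave 52.8% and 55.2% of the TPM of these 4 chains, and 59.9% and 63.1% by the read-derived table. With Lama3, an alpha chain outside the list at 3.62 and 4.3 TPM, its share was 48.8% and 50.6%. Lama2 and Lama5 were nearly equal in replicate 1 and further apart in replicate 2, and the gap between them in replicate 1 was smaller than that of either gene between libraries. A retained-intron transcript of 643 bases, Lama2-206, held 13.1% and 30.2% of Lama2's TPM by alignment. The full coding transcript Lama2-201 was at 4.38 and 4.37 TPM and Lama5-201 at 4.07 and 4.86 TPM, so their order differed between libraries. Lama2 has 2 short coding exons, of 12 and 6 bases, which the same transcript skips. They were included at 75.1% and 74.6% by the alignment-derived table and at 92.8% and 93.8% by the read-derived table, a wider gap between quantifications than between libraries.

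The beta chains were close to each other in the TPM of the whole gene. Lamb2 was at 41.8 and 40.4 TPM, and Lamb1 at 37.1 and 36.7 TPM. Lamb1 held 47.0% and 47.6% of the TPM of the pair in the gene table and 51.9% and 50.9% in the read-derived table, so which of the pair was higher depended on the quantification. Lamb2-206, an annotated transcript of 345 bases, held 30.5% and 30.6% of Lamb2's TPM by alignment, on 113 and 118 expected counts. It counts in the TPM of the gene and in the sums below. The full coding transcripts were further apart, Lamb1-201 at 35.2 and 33.0 TPM and Lamb2-201 at 21.3 and 22.6 TPM. The read-derived table gave 57.5 and 54.7 TPM against 34.5 and 36.0 TPM. The gamma chain Lamc1 was at 25.0 and 25.5 TPM. The 4 alpha chains of the list summed to 1.74 and 1.87 times Lamc1, and the pair of beta chains to 3.15 and 3.02 times. With Lama3 added, the alpha chains summed to 1.88 and 2.04 times Lamc1. Lamc3, a gamma chain outside the list at 4.54 and 4.17 TPM, was not added to Lamc1 in these ratios.

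The nidogens join laminin to collagen IV. Nid1 was at 23.6 and 22.3 TPM, near the level of Lamc1, and Nid2 at 5.54 and 7.53 TPM. Nid2 did not reach the limit by TPM, with a log2 ratio of 0.44, and its ratio of count shares was 1.04 with an interval from 0.955 to 1.14. A retained-intron transcript of 543 bases, Nid2-202, held 26.1% of its TPM in replicate 2 against 3.07% in replicate 1. Lama5 differed between measures too: its TPM was lower in replicate 2, while its counts were 1746 and 2185, a ratio of count shares of 1.15. Short processed transcripts held part of its TPM in both libraries by alignment, and in replicate 1 only from reads. The full coding transcript Lama5-201 held 45.8% and 62.1% by alignment, and 75.4% and 100% from reads. Nid2 overlaps the detected gene Rtraf (23.1 and 23.4 TPM) on the opposite strand, and whether the counting used strand is not given, so its level is uncertain.

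Of 12 other laminin and basement membrane genes, 9 were detected and none of the 10 with enough counts stood apart. The collagen IV chains Col4a1 at 121 and 109 TPM and Col4a2 at 61.3 and 55.4 TPM exceeded each laminin and nidogen, and agrin (Agrn) was at 9.41 and 10.1 TPM. The 10 markers of endothelium, a source of basement membrane, summed to 217 and 207 TPM, led by Plvap, and none stood apart.

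**Figure D3:**
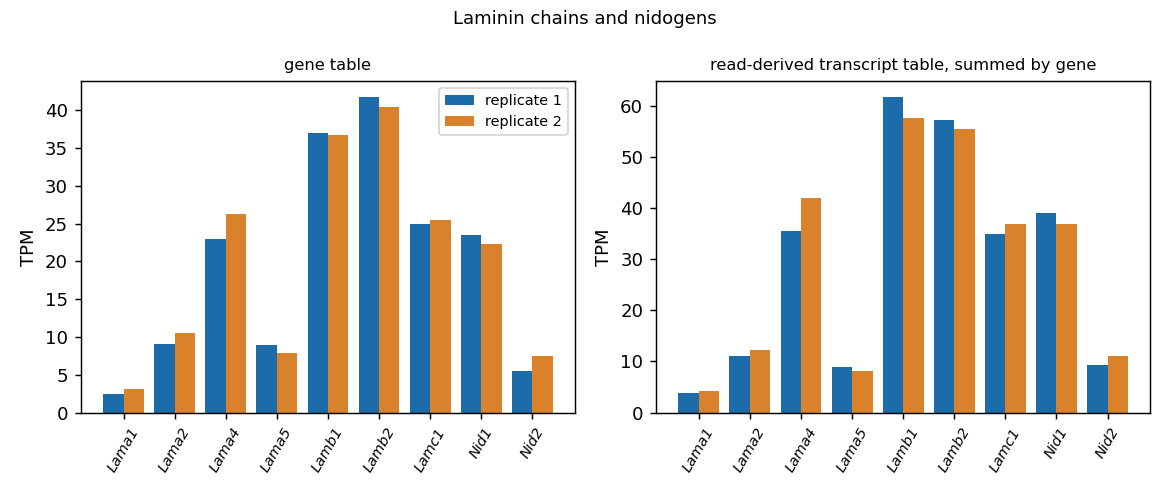
Laminin chains and nidogens in TPM, from the gene table (left) and from the read-derived transcript table summed by gene (right), with linear axes from 0. Blue bars are replicate 1 and orange bars replicate 2. Lama4 is the highest alpha chain in both panels, and the order of Lamb1 and Lamb2 differs between the panels.

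The surface proteins were Pdgfra, the receptor by which fibroblasts answer platelet-derived growth factor, and Thy1, a surface glycoprotein of fibroblasts, T cells and neurons. Pdgfra was at 11.0 and 10.2 TPM, and Thy1 at 11.8 and 8.01 TPM. Thy1 was likewise just short of the 1.5-fold limit, with a log2 ratio of -0.56. Its counts differed less, 524 and 471, with a ratio of count shares of 0.829 and an interval from 0.730 to 0.940. Thy1-205, an annotated transcript of 460 bases, held 20.5% of its TPM in replicate 1 on 31.5 expected counts and none in replicate 2.

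Matrix proteases and their inhibitors were all detected, and the inhibitors led. Timp3, the tissue inhibitor that stays bound to the matrix, was at 132.4 and 131.7 TPM, nearly equal between libraries. Timp2 was at 28.1 and 25.5 TPM and Timp1 at 6.69 and 6.4 TPM. In each library Timp3 exceeded the other 2 inhibitors together. Of the proteases, Mmp14, a membrane protease that activates Mmp2, was at 17.4 and 16.5 TPM and Mmp2, a gelatinase, at 8.67 and 8.29 TPM. Both lay within 1.1-fold between libraries. Timp1 lies inside Syn1 (2.34 and 1.93 TPM) and Timp3 inside Syn3 (0.54 and 0.76 TPM), each on the opposite strand. Syn3 was under 1 TPM in both libraries.

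Adamts1, a secreted protease that cuts versican, was the only gene of the list with enough counts that was 1.5-fold or more higher in replicate 2. It was at 4.3 TPM in replicate 1 against 7.24 TPM in replicate 2, a log2 ratio of 0.74, on 663 and 1283 expected counts. Its ratio of count shares was 1.78 with an interval from 1.62 to 1.96. The coding transcript Adamts1-201 held 81.6% and 92.0% of its TPM. Of 19 other matrix proteases and inhibitors 14 were detected, led by the procollagen enhancer Pcolce at 298 and 275 TPM, then Mmp19 at 11.7 and 12.1 TPM and Htra1 at 11.1 and 11.7 TPM. Timp4, at 1.82 and 1.17 TPM, was the one that stood apart.

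Smaller differences leaned one way. Of the 43 genes, 32 (74.4%) were lower in replicate 2, beside 41.3% of all genes, and their median log2 ratio was -0.08 beside 0.04. The fibroblast markers leaned in the same direction, with 9 of 10 lower in replicate 2, and so did all 8 chromaffin markers. Among the other marker lists, all 8 skeletal muscle, 2 liver and 3 mesothelium markers with enough counts were lower. So were 6 of 8 macrophage, 3 of 4 capsule and 6 of 10 endothelium markers. Of cortex markers 3 of 8 were, of adipocyte and of pericyte and smooth muscle markers 3 of 7 each, and of Schwann cell markers 1 of 4. Within the list, 4 laminins and nidogens were lower and 5 higher, and both large proteoglycans were higher by TPM. Of the calcium-binding and matricellular glycoproteins, 9 of 10 were lower. Most gaps were small: 33 of the 43 genes (76.7%) lay within 1.2-fold, beside 79.4% of all genes. The deposited TPM intervals, whose level the files do not state, did not overlap between libraries for 14 of the 43 genes (32.6%), 12 lower and 2 higher in replicate 2. Over all genes 15.0% did not overlap. Beside Eln, Lox, Adamts1, Fn1 and Thy1, these were Sparc, Sparcl1, Bgn, Spp1, Smoc1, Ogn, Fbln1, Thbs1 and, higher, Hspg2. The deposited TPM lay outside its own interval for 3 of the 45 genes in replicate 1 and 2 in replicate 2. They were Sparc and Fbn2 in both libraries and Fbln2 in replicate 1, so these intervals are a rough guide. For 6 genes, Timp3, Lamb2, Lama2, Loxl2, Lama5 and Vcan, the ratios of TPM and of counts lay on opposite sides of 1. The read-derived table reversed the order of the libraries for 5 genes, Vcan, Loxl2, Timp3, Pdgfra and Mmp2.

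**Figure D4:**
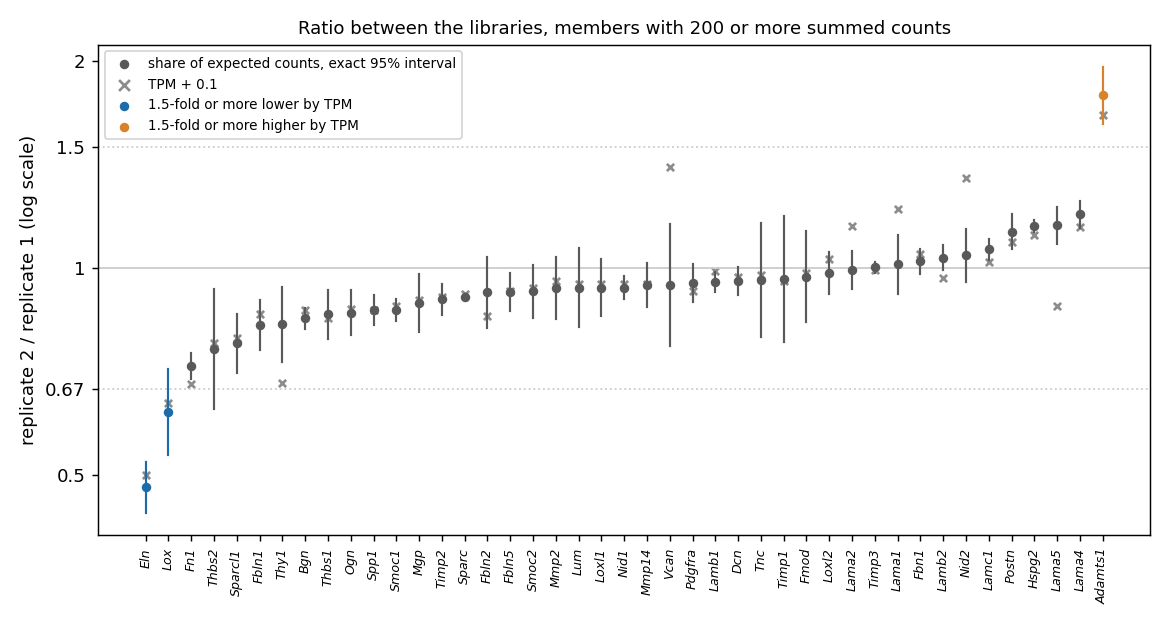
Ratio of replicate 2 to replicate 1 on a log axis for the 43 genes with 200 or more summed counts. Points are ratios of expected-count shares with exact 95% binomial intervals (counting error only), crosses are ratios of TPM + 0.1, and dotted lines mark 1.5-fold. Eln and Lox lie below the lower line and Adamts1 above the upper line, while the crosses of Vcan, Nid2, Thy1 and Lama5 lie away from their points.

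Matrix receptors and further matricellular genes gave the context of these levels. Of 27 integrins and other receptors 22 were detected, led by the collagen and thrombospondin receptor Cd36 at 162 and 163 TPM, the syndecan Sdc3 at 139 and 132 TPM and the integrin chain Itgb1 at 90.5 and 88.4 TPM. Itgb3, a chain of the receptors for osteopontin and of platelets, was lower in replicate 2 at 3.35 and 1.56 TPM, as was Itga2 at 0.85 and 0.32 TPM. Of 18 other matricellular genes 10 were detected and none stood apart, led by Ecm1 at 133 and 130.1 TPM, Fstl1 at 21.5 and 18 TPM and Ccn2 at 23.3 and 16.2 TPM.

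The 45 genes have 217 annotated transcripts, and 3 of them, Loxl1, Lum and Ogn, have 1 each. In 40 genes the leading transcript by TPM was the same in both libraries, and in 37 it was the same in both quantifications as well. For Dcn, Dcn-201 led in 3 of the 4 values and tied with Dcn-202 at 49.5% in replicate 2 from reads. In replicate 1 it was protein-coding for 44 genes, the exception being Fbln2. The leading transcript held 90% or more in all 4 values for Loxl1, Lum, Mgp, Nid1, Ogn, Thbs1, Thbs2 and Timp3. For Sparc and Spp1 the quantifications disagreed in both libraries. Sparc-202 held 72.5% and 70.6% of Sparc by alignment, but Sparc-201 held 56.4% and 54.2% from reads. Spp1-202 held 85.6% and 88.2% of Spp1 by alignment, whereas Spp1-207, a transcript of 634 bases, held 48.1% and 48.9% from reads and none by alignment. The 3-base exon of Spp1 was likewise included at 88.0% and 88.2% by alignment and at 73.9% and 77.0% from reads. The read-derived total of Spp1 was 185 and 164 TPM and that of Sparc 2051 and 1947 TPM, each above its gene-table level, as the totals of all 45 members were in replicate 1.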

How the data were processed

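Adrenal gland total RNA was measured in 2 libraries of 1 group. Per the file headers and the text deposited beside them, the authors' gene table and alignment-derived transcript table give the expected count and TPM of each feature on mm10 with GENCODE M21, from a transcriptome alignment, with column names that RSEM writes. The deposited read-derived transcript table holds an estimated count and TPM. The deposited TPM interval bounds are a signal whose level is unstated. The deposited isoform percent is a transcript's share of its gene's TPM, and shares were recomputed here from TPM. Not given in the sources used here: aligner, versions, filters and strand use. The deposited TPM sum over all entries, small RNAs included: nuclear protein-coding genes held 31.2% in the gene table of each library and 59.2% in the read-derived tables.

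Ratios are replicate 2 over replicate 1 of TPM + 0.1. Genes with 200 or more summed expected counts were counted as apart at 1.5-fold. Ratios of count shares have exact 95% binomial intervals; reads carry no stated molecular identifiers, so these cover counting error only. Over 16543 genes the libraries differed by a chi-square of 21.5 per degree of freedom, so they were kept as 2 samples. Cassette exons were taken from GENCODE M21, coding and included at 5% to 95% in all 4 values (23 exons in 7 genes). Named genes were all 45 members, the 3 highest and every one apart of each related list, and the highest of each marker list described. Members and lists were chosen with earlier results of these data known. The symbols of 5 CCN genes were matched through RefSeq synonyms. Alternatives were the read-derived table, TPM rescaled over protein-coding genes, count scaling with edgeR 4.0.16 (TMM) and DESeq2 1.42.0 in R 4.3.3, other pseudocounts, count limits and folds, and each library alone. Tables were handled in Python 3.11.15 (pandas 2.3.3, scipy 1.17.1) and plotted in matplotlib 3.10.9.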

Additional observations from a re-analysis of the deposited data

How the results depend on the processing

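At 2-fold in place of 1.5-fold, 1 member (Eln) stood apart in place of 3. With a pseudocount of 1 TPM 2 did, Lox being lost at a log2 ratio of -0.47, and with no limit on counts 4 did, Spon2 being added. The same 3 genes, Eln, Lox and Adamts1, stood apart in the read-derived table and under the TMM, DESeq2 and protein-coding scalings. The read-derived table put the summed level at 3568 TPM in place of 1957 TPM. The median over members of the ratio of its TPM to that of the gene table was 1.66 and 1.65 in replicates 1 and 2. Leaving out a library gave 41 to 42 detected members, a summed level of 1884 to 2029.8 TPM, 38 to 39 members whose leading transcript held 50% or more, and 1.74 to 1.87 for the sum of the 4 alpha chains of the list over Lamc1. That ratio averaged 1.80 over the libraries, and 1.96 with Lama3 added, a sum chosen after the data were seen. Ratios need both libraries. The number of detected members ranged from 35 at 5 TPM to 43, and the median log2 ratio from -0.12 to -0.07. Over single genes the count limit was kept, so Spon2 and Fbn2 could not be called as apart. Of 225 alternative values, 207 kept their call as apart or not and reversed no sign. Lox fell short in 1, and 17, in 9 genes not apart in the gene table (Lama1, Lama2, Lama5, Lamb2, Loxl2, Mmp2, Pdgfra, Timp3 and Vcan), changed sign, the widest being Vcan, from 0.49 to -0.49 in the read-derived table. The cause was not tested. No paired analysis was possible because there is 1 group. The limits are 2 libraries, counts under 60 per library for Spon2 and Fbn2, and short annotated transcripts that weigh on TPM.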
